A study of Mus musculus with 6 samples.

Results

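Bone marrow-derived macrophages (BMDMs) polarized by IL4, the M2 phenotype, were compared with and without regorafenib by RNA-seq. Regorafenib is an oral inhibitor of several kinases, among them the VEGF receptors and CSF-1R. The genes described are those with at least 10 counts in one of the 2 M2 libraries, which were 13813 of the 54446 genes in the table, and 33159 genes had no count in either M2 library. The BMDMs were grown for 7 days from the marrow of male BALB/c mice aged 6 to 8 weeks, in medium with 20% L929-conditioned medium, a source of CSF-1 that all groups shared. M2 cells received IL4 (20 ng/mL) for 24 hours. Regorafenib was dosed at 1 µM, 1 hour ahead of the cytokine, and the control cells were given DMSO. The series also holds unpolarized cells (M0) and cells polarized by LPS at 50 ng/mL together with IFN-γ at 20 ng/mL (M1), each with and without regorafenib. Each of the 6 groups is 1 library, and the number of mice behind a library is not given in the sources used here.

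IL4 binds a receptor of Il4ra with Il2rg or Il13ra1, and JAK kinases on these chains phosphorylate Stat6, which then enters the nucleus and turns on genes such as Mrc1, Retnla and Chil3. Macrophages polarized in this way are known for lectin and scavenger receptors and for chemokines that attract eosinophils and T helper 2 cells. BMDMs also depend on CSF-1, whose receptor Csf1r signals through ERK and AKT to D cyclins and survival genes.

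The M2 control library held 34898342 counts and the M2 regorafenib library 25359309, which are the highest and the lowest total of the 6 libraries. Counts were scaled with TMM over the 6 libraries, levels are given in CPM, the counts brought to a common library size, and a ratio always means regorafenib over control on the log2 scale. The 95% interval of a ratio covers counting error only. A gene was called higher or lower when the ratio was 2-fold or more and its interval excluded 0. The kit keeps strand, but the strand used for counting is not given in the sources used here, so genes that overlap on opposite strands are uncertain. With 1 library per group there is no replicate check and no test of the conditions, and a call describes 2 libraries. In bulk RNA, fewer cells of a type and less RNA per cell cannot be told apart. All 12 macrophage markers checked had at least 10 counts in an M2 library, and the M2 marker Retnla had 941 and 3348 counts in the M2 libraries against 0 to 2 in the other 4.

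Among the 13813 genes, 722 (5.23%) were called higher and 568 (4.11%) lower. The interval lay above 0 at any size for 3862 genes (28%) and below 0 for 4716 genes (34.1%). The median ratio was −0.03, the 5th and 95th percentiles were −1.01 and 1.12, and the extremes were −7.02 and 5.47. At 4-fold or more, 186 genes were higher and 149 lower. Calls were more frequent among weakly expressed genes. In the lowest quartile of level 11.6% of genes were higher and 8.49% lower, against 2.35% and 2.52% in the highest quartile. The threshold separates close neighbours, since 251 genes had a ratio between 1 and 1.1 in size and 265 between 0.9 and 1. A further 261 genes were past 2-fold with an interval that included 0 and were not called.

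Most genes of the IL4 receptor pathway were not called, and none was lower. Of 18 genes of the IL4 receptor, its kinases, Stat6 and its feedback, 5 were higher and 0 lower, against 5.23% and 4.11% of all genes, and the median ratio was 0.54. The receptor chain Il4ra had 689 counts in control and 704 with regorafenib (ratio 0.42), and the shared chain Il2rg had 1275 and 1131 (0.21). Stat6, the signal transducer itself, had 13367 and 8001 counts, a ratio of −0.36 that was not called. The 5 genes called higher were Cish (241 to 533 counts, 1.53), Irf4 (855 to 1607, 1.29), Il13ra1 (28 to 52, 1.28), Socs2 (24 to 44, 1.26) and Ppargc1b (201 to 343, 1.16). Cish and Socs2 are feedback inhibitors of cytokine receptors that STAT proteins induce, and Irf4 is a transcription factor of M2 polarization. The feedback inhibitor Socs1 had 615 and 297 counts, a ratio of −0.67 that was not called.

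Genes listed as IL4 effectors of macrophages went in opposite directions. Not all were higher in the M2 than in the M0 control here, and Msr1 had 1847 CPM in the M0 and 1327 CPM in the M2 control. Of 24 tested IL4 effector genes, 9 were higher (37.5%) and 8 lower (33.3%), beside 5.23% and 4.11% of all genes. The median ratio was 0.32. Ch25h, which makes 25-hydroxycholesterol, fell from 678 to 4 counts (−7.02, interval −8.90 to −5.66). Mgl2 and Clec10a, lectins that bind galactose sugars, were lower, with 2017 counts against 305 for Mgl2 (−2.34) and 1449 against 237 for Clec10a (−2.23). These lectins are neighbours on chromosome 11 with similar sequence, and 5.92% of the 100-base words of Mgl2 also occur in Clec10a. Cdh1, the adhesion protein E-cadherin, fell from 1063 to 143 counts (−2.51). The scavenger receptors Cd36 (51853 to 10537, −1.91) and Msr1 (48460 to 12665, −1.55) and the transcription factor Klf4 (6702 to 2362, −1.12) were lower as well. Mrc1, which encodes the mannose receptor CD206, had 24237 and 12895 counts, a ratio of −0.53 (interval −0.56 to −0.50) that was short of 2-fold.

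Another set of effector genes was higher. Retnla, which encodes a secreted resistin-like protein, rose from 941 counts (25.8 CPM) to 3348 counts (120 CPM), a ratio of 2.22 (interval 2.11 to 2.32). Rnase2a, an eosinophil-associated ribonuclease, rose from 1181 to 4003 counts (2.15). Chil3, the chitinase-like protein Ym1, rose from 379 to 675 counts (1.22), and 5.42% of its 100-base words also occur in Chil4 or Gm6522. Pdcd1lg2, which encodes the PD-1 ligand PD-L2, rose from 48 to 211 counts (2.52, interval 2.06 to 3.0). Ccl24, an eosinophil chemokine, had 15 and 181 counts (3.98), Ccl17 had 4 and 38 (3.63) and Ccl22 had 172 and 405 (1.62). The kinase gene Matk (799 to 1458, 1.25) and the matrix gene Fn1 (446 to 779, 1.19) were also higher. Il4i1, a secreted amino acid oxidase named for its induction by IL4 and not on the list, rose from 146 to 1198 counts (3.42). It overlaps Nup62 on the same strand, and Nup62 had 3498 and 2827 counts.

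Retnla, Ccl17 and Pdcd1lg2 hold a STAT6 type site in the window around the start that was searched, and these stretches are shown because the 3 genes rose. The motif searched was TTC and GAA with any 4 bases between them, which reads the same on both strands. It occurs in 4 of the 17 IL4 effector genes with a window, these 3 and Cd36, which was lower, and in 5.46% of the windows of tested genes and 7.0% of all 27025 RefSeq windows, which run from 250 bases before the start to 50 after it. Each stretch ends at the base before the transcription start on GRCm38.p6, the strand shown is that of the gene, and the capitals mark the motif.
Ccl17 (chr8:94810283-94810452, plus strand): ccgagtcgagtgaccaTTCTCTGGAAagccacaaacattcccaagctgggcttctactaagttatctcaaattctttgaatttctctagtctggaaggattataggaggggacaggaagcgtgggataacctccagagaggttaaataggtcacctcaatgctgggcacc
Retnla (chr16:48842381-48842550, plus strand): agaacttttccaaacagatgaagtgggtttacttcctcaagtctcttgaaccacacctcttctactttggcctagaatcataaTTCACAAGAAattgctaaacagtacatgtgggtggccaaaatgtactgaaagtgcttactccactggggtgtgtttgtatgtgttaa
Pdcd1lg2 (chr19:29410749-29410918, plus strand): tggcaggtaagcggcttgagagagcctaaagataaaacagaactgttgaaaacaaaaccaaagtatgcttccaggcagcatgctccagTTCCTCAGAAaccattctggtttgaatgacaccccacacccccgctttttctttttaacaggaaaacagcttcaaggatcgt
The motif lies 154 to 145 bases before the start in Ccl17, 87 to 78 bases in Retnla and 82 to 73 bases in Pdcd1lg2. A match to these letters is a description and does not show that Stat6 binds there.

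Several IL4 effector genes were near 0 in M0, and others were not. Mgl2 had 0 to 4 counts in the M0 and M1 libraries and Rnase2a 0 to 2. Ch25h was lower in M0 as well (405 and 34 counts, −3.68) and had 2834 and 1870 counts in M1 (−0.50, not called). Ccl17 and Ccl22 were higher with regorafenib in M1 too, where Ccl17 had 19 and 375 counts (4.40) and Ccl22 had 1295 and 6114 (2.34).

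**Figure D1:**
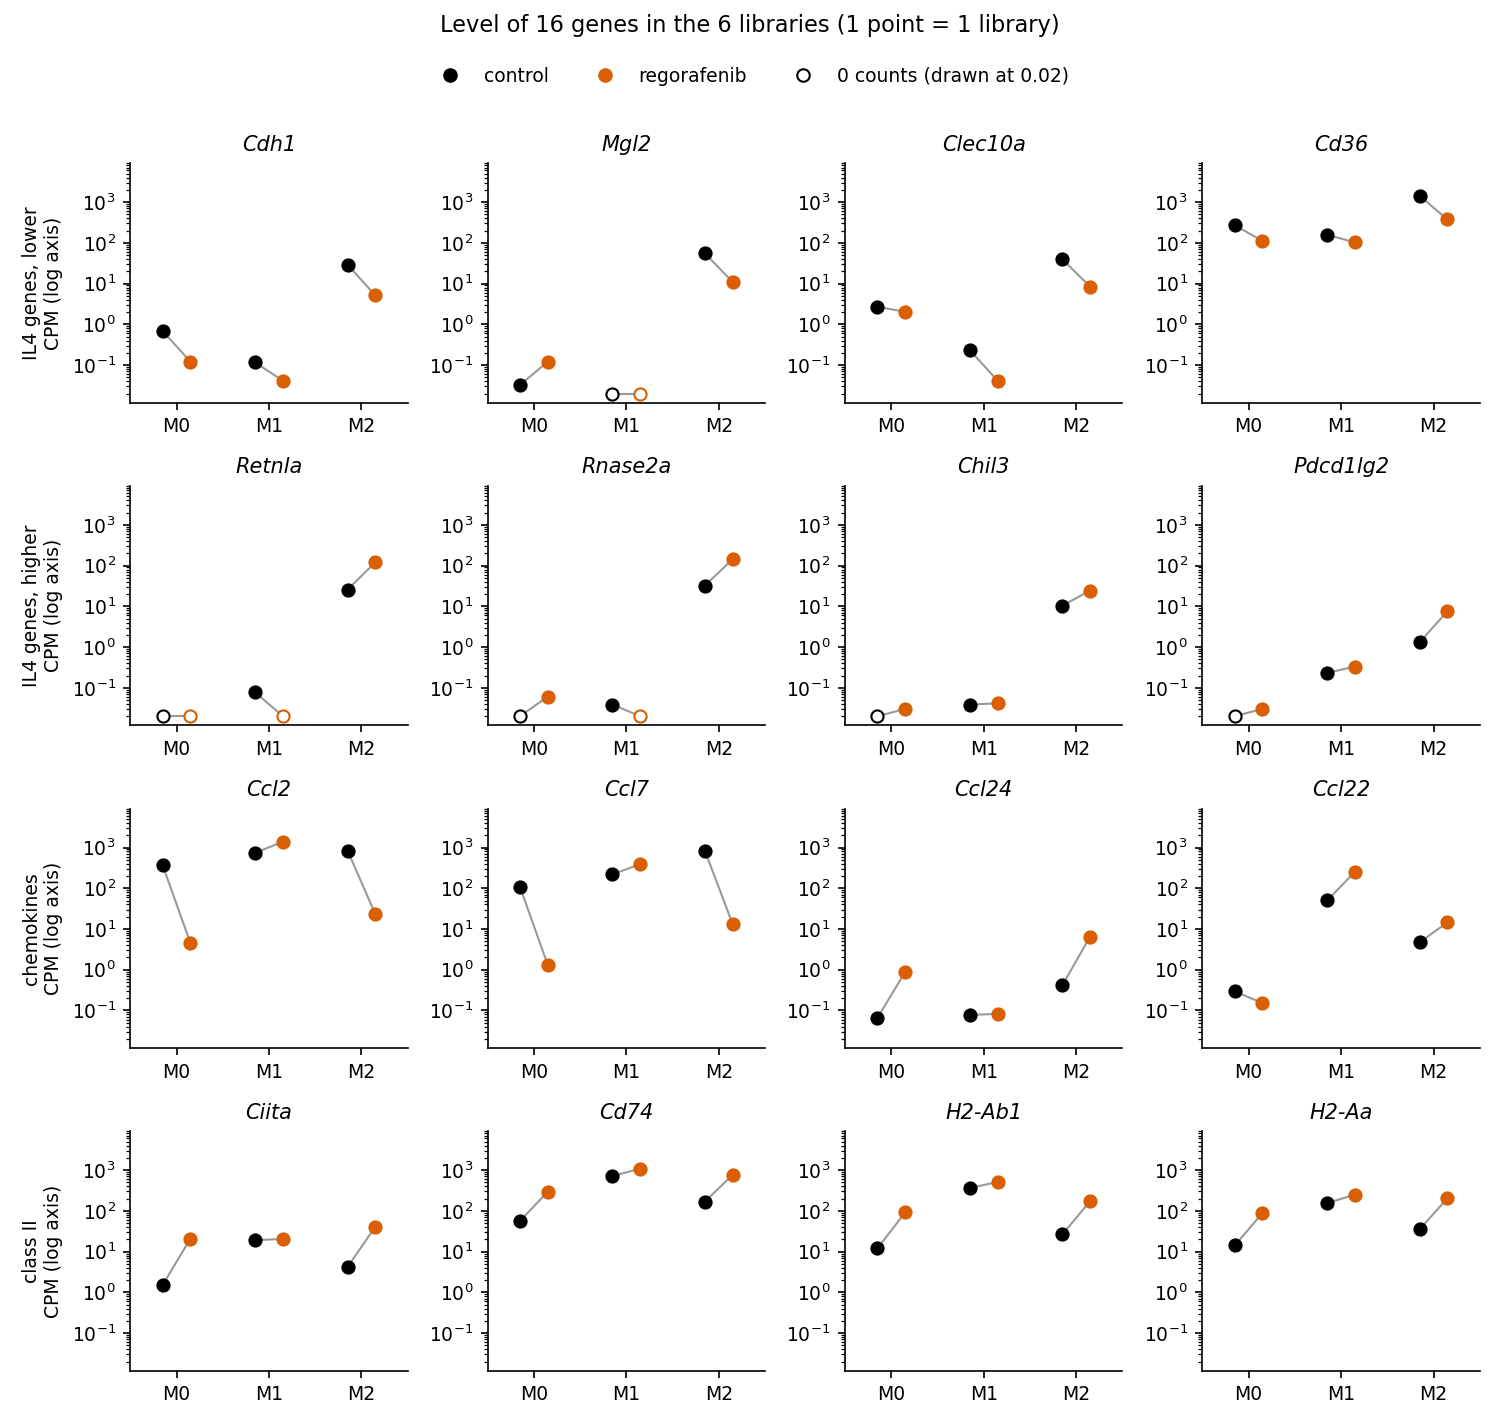
Each panel gives 1 gene in the M0, M1 and M2 states, with CPM on a log axis, black points for control and orange points for regorafenib; each point is 1 library, so there are no error bars, and open points mark 0 counts. In M2, Cdh1, Mgl2, Clec10a, Cd36, Ccl2 and Ccl7 are below their control, while Retnla, Rnase2a, Chil3, Pdcd1lg2, Ccl24, Ccl22 and the class II genes are above it.

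Monocyte chemokines fell and 3 chemokines of the IL4 effector list rose. Of 14 tested CC chemokines, 6 were lower and 3 higher, beside 4.11% and 5.23% of all genes. The median ratio was −1.06, or −0.48 with 1 CPM added to each level. The list summed to 3363 CPM in control and 1084 CPM with regorafenib. The monocyte chemoattractants were lowest. Ccl2 had 30618 counts (839 CPM) in control and 649 counts (23.2 CPM) with regorafenib, a ratio of −5.18 (interval −5.29 to −5.06). Ccl7 had 30289 and 368 counts (−5.98, interval −6.13 to −5.83) and Ccl12 had 1087 and 14 counts (−5.89). The inflammatory chemokine genes Ccl3 (1717 to 434, −1.60) and Ccl4 (1274 to 205, −2.25) and the monocyte chemokine Ccl8 (267 to 34, −2.59) were lower as well. The 3 higher were Ccl24, Ccl17 and Ccl22, all counted among the IL4 effectors. Ccl9 had 54267 and 24557 counts (−0.76, not called), and Ccl6 had 2868 and 3297 (0.59).

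Ccl2, Ccl7, Ccl12 and Ccl8 lie side by side on chromosome 11 between 81983119 and 82116799 (GRCm38), together with the noncoding Gm31522, and these 5 are consecutive tested genes that were all lower. In the M0 libraries, Ccl2 had 11274 and 149 counts (−6.34) and Ccl7 had 3304 and 43 (−6.37), both lower. In M1 their ratios were 0.91 and 0.83, and neither was called. Over the list, the median was −1.74 in M0 and 0.75 in M1.

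Among CX chemokines, Cxcl16, the membrane-bound CXCR6 ligand, rose from 1397 to 2737 counts (1.35), Cx3cl1 had 22 and 39 counts (1.21), and the interferon-induced Cxcl10 had 48 and 15 (−1.29). Of 9 tested chemokine receptors, 4 were higher and 2 lower, beside 5.23% and 4.11% of all genes. Their median of 0.64 became −0.04 when at least 10 counts were required in both libraries. The lower pair was Ccr1 (3356 to 673, −1.93) and the eotaxin receptor Ccr3 (261 to 28, −2.84). The higher genes were Cxcr2 (6 to 18, 1.97), Ccrl2 (178 to 335, 1.30), Cxcr4 (4891 to 8474, 1.18) and Ccr2, the receptor of Ccl2 (280 to 434, 1.02).

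Most genes of MHC class II presentation were higher. Of 12 tested genes, 9 were higher and 0 lower, beside 5.23% and 4.11% of all genes. The median was 2.48, or 2.32 with the gene at 0 counts set at its bound and 1.64 with 1 CPM added to each level. Ciita, the master regulator of class II transcription, rose from 154 to 1144 counts (3.28, interval 3.03 to 3.53). Of the chains of I-A, H2-Ab1 rose from 966 to 4825 counts (2.7) and H2-Aa from 1296 to 5680 (2.52). H2-Eb1, a chain of I-E, rose from 663 to 2771 counts (2.45), and Cd74, the invariant chain, from 6171 to 21546 counts (2.19). The peptide loading genes H2-DMb1 (101 to 482, 2.64) and H2-DMb2 (56 to 124, 1.53), which share 13.7% and 12.9% of their 100-base words with other genes, followed. H2-Ob, a modulator of loading, went from 0 to 10 counts and was at least 4.35-fold higher. H2-Oa, its partner, had 2 and 12 counts (2.97, interval 0.80 to 6.17), and both reached 10 counts only with regorafenib. The remaining 3 were not called, and they were H2-DMa at 1318 and 1759 counts (0.80), the protease gene Ctss (0.43) and the thiol reductase gene Ifi30 (0.45).

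H2-Ob, H2-Ab1, H2-Aa, H2-Eb1 and the pseudogene H2-Ea-ps were consecutive tested genes on chromosome 17, from 34238903 to 34344645 (GRCm38), and all 5 were higher. Promoters of class II genes carry a conserved module in which a CCAAT type box (Y box) and a site related to the cyclic AMP response element help recruit Ciita, so the stretches before 3 of these genes are shown. CCAAT was searched on both strands, where it reads CCAAT or ATTGG, together with the cyclic AMP response element TGACGTCA, which reads the same on both strands. Capitals mark these letters, and each stretch ends at the base before the transcription start on GRCm38.p6.
H2-Aa (chr17:34287824-34287943, minus strand): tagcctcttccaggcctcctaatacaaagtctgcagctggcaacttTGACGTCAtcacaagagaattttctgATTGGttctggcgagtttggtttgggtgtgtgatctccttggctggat
H2-Eb1 (chr17:34305747-34305866, plus strand): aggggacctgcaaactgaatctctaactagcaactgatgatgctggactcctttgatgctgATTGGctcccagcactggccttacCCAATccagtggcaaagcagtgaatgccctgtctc
H2-Ob (chr17:34238783-34238902, plus strand): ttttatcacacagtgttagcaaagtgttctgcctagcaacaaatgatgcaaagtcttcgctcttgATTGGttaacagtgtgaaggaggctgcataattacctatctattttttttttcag
H2-Aa holds TGACGTCA 74 to 67 bases before the start and ATTGG 48 to 44 bases before it. ATTGG lies 59 to 55 bases before the start in H2-Eb1 and 55 to 51 bases before it in H2-Ob, and H2-Eb1 also holds CCAAT at 35 to 31 bases. Of the 12 tested class II genes, 9 had a window and 6 of those held a CCAAT box, which 39.1% of the windows of tested genes and 38% of all windows hold, while TGACGTCA occurred in 1 of the 9, in 3.27% of the windows of tested genes and in 1.85% of all windows.

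In M0, 6 of 11 tested class II genes were higher, beside 8.27% of all genes, Ciita went from 47 to 686 counts (3.77) and the list median was 2.38. In M1 the control level of H2-Ab1 was already 9366 counts, with 12444 under regorafenib (0.51, not called), and Ciita had 495 counts in both M1 libraries. In MHC class I presentation, 1 of 19 genes was higher (5.26%) and 0 were lower, beside 5.23% and 4.11% of all genes. It was the nonclassical H2-T23 (4256 to 6632, 1.02). The class I median was 0.46, with 13 intervals above 0 and 3 below it, beside 28% and 34.1% of all genes.

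Genes of the colony-stimulating factor pathway were higher or not called. Of 7 tested genes, Csf3r, the G-CSF receptor, rose from 323 to 1822 counts (2.88, interval 2.71 to 3.06) and Csf2rb, the shared chain of the GM-CSF and IL-3 receptors, from 13961 to 22782 (1.09). Csf1r itself had 64521 and 78969 counts, which is 1767 and 2823 CPM, a ratio of 0.68 that was not called. Of the 7 genes, 2 were higher and 0 lower, beside 5.23% and 4.11% of all genes. All 7 intervals lay above 0, beside 28% of all genes.

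Genes downstream of ERK were lower in part. Of 24 tested feedback and immediate early genes, 4 were lower (16.7%) and 2 higher (8.33%), beside 4.11% and 5.23% of all genes. The interval lay below 0 for 16, beside 34.1% of all genes, and the median was −0.59. The lower genes were the Ras-ERK inhibitor Spry4 (34 to 3 counts, −3.12, interval −5.47 to −1.45), the ETS factor Etv1 (2475 to 632, −1.59), the AP-1 gene Fosl1 (67 to 19, −1.43) and the inhibitor Spred2 (1805 to 563, −1.30). Several lay just inside the limit, with Etv5 at −0.99 (1721 to 666 counts), Spred1 at −0.98 (7619 to 2954) and the ERK phosphatase Dusp6 at −0.92 (1155 to 467). The higher genes were Dusp2 (40 to 81, 1.40) and Fosb (2 to 13, 3.08, interval 0.94 to 6.27). Fosb reached 10 counts only with regorafenib and Spry4 only in control, so the filter itself favoured their calls. In M0, 14 of these 24 genes were lower, beside 10.2% of all genes, with a median of −1.21.

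Of 23 tested genes of the p38 MAPK and CREB pathway, 1 was higher (4.35%) and 2 were lower (8.7%), beside 5.23% and 4.11% of all genes, and the median was 0.01. Mapk14, which encodes p38α, had 6017 and 4938 counts (0.10), and Creb1 had 1795 and 1746 counts (0.34). The lower genes were Dusp16 (642 to 236, −1.06), a phosphatase of p38 and JNK, and Mapk11, which encodes p38β (134 to 50, −1.04), while the p38 substrate kinase Mapkapk3 was higher (1272 to 2040, 1.07). With total counts both lower genes were short of 2-fold (Dusp16 −0.98, Mapk11 −0.96), as was Mapk11 with the upper quartile (−0.997). Phosphorylation is not measured by these libraries. Among the KLF factors Klf4 was the 1 gene called of 11, and the list median was −0.37.

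Ch25h and Epha2 are shown because both were among the 12 lowest genes and each holds TGACGTCA in the bases before the start. These letters occur in 3.27% of the windows of tested genes, in 2.89% of those of lower genes (11 of 380) and in 1.85% of all windows. Epha2 encodes an ephrin receptor kinase that regorafenib also binds, and fell from 755 to 34 counts (−4.09, interval −4.63 to −3.59). The capitals mark TGACGTCA.
Ch25h (chr19:34475165-34475284, minus strand): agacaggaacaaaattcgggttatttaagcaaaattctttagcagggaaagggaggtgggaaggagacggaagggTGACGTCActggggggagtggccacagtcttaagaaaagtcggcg
Epha2 (chr4:141301101-141301220, plus strand): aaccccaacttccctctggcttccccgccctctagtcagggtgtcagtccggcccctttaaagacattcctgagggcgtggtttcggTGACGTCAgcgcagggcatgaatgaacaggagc
The motif lies 45 to 38 bases before the start of Ch25h and 33 to 26 bases before that of Epha2. RefSeq windows covered 71.3% of the tested genes, the shares cover only genes with a window, and they were not tested. Ch25h and Epha2 were picked by their ratios and their sites, so nothing is read from the 2 sites about the other lower genes.

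Ccnd1 and Ccnd2 fell, while the genes of DNA replication and mitosis were not called. Ccnd1, which drives the G1 phase, fell from 51132 counts (1400.5 CPM) to 5438 counts (194 CPM), a ratio of −2.85. Ccnd2 fell from 353 to 35 counts (−2.95) and their partner kinase gene Cdk6 from 7135 to 2224 (−1.30), whereas Ccnd3 had 2655 and 1620 counts (−0.33). The CDK inhibitor gene Cdkn1a (p21) was lower (24983 to 6268, −1.61) and Cdkn1b (p27) higher (752 to 1257, 1.13). None of 31 S phase genes was called in either direction, but 23 intervals lay below 0 and 1 above it, beside 34.1% and 28% of all genes, and the median was −0.30. Likewise 0 of 31 genes of G2 and mitosis were called, with a median of −0.05, and the proliferation marker Mki67 had 7534 and 6231 counts (0.11). In M0, with its own control, 30 of the 31 S phase genes and all 31 mitotic genes were lower, beside 10.2% of all genes. Their medians were −2.12 and −1.89. The summed level of the mitotic list was 3808 CPM in the M0 control, 1030 in M0 with regorafenib, and 1557 and 1556 in the M2 pair.

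Most genes of ribosome biogenesis, the proteasome, translation and glycolysis had small ratios below 0. All 30 ribosome biogenesis genes had an interval below 0, with ratios from −1.11 to −0.25 and a median of −0.74. Of these, Rrp12 (1401 to 499, −1.11) and the rRNA methyltransferase gene Nop2 (2426 to 888, −1.07) were called lower (6.67%, beside 4.11% of all genes). Nop2 was short of 2-fold with total counts (−0.99). The interval was below 0 for 35 of 38 proteasome genes (median −0.40), 18 of 20 cytosolic tRNA synthetase genes (−0.44), 20 of 24 glycolytic genes (−0.41) and 70 of 80 ribosomal protein genes (−0.27), beside 34.1% of all genes. Among these 4 lists 2 genes were called lower and 0 higher. Of 19 targets of ATF4, the amino acid stress factor, 4 were lower and 0 higher, beside 4.11% and 5.23% of all genes. The lower genes included the serine synthesis gene Psat1 (1951 to 582, −1.36) and the amino acid transporter gene Slc7a5 (717 to 265, −1.05). With total counts Slc7a5 was short of 2-fold (−0.98). The heat shock list had a median of −0.55 with 0 of 12 called.

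**Figure D2:**
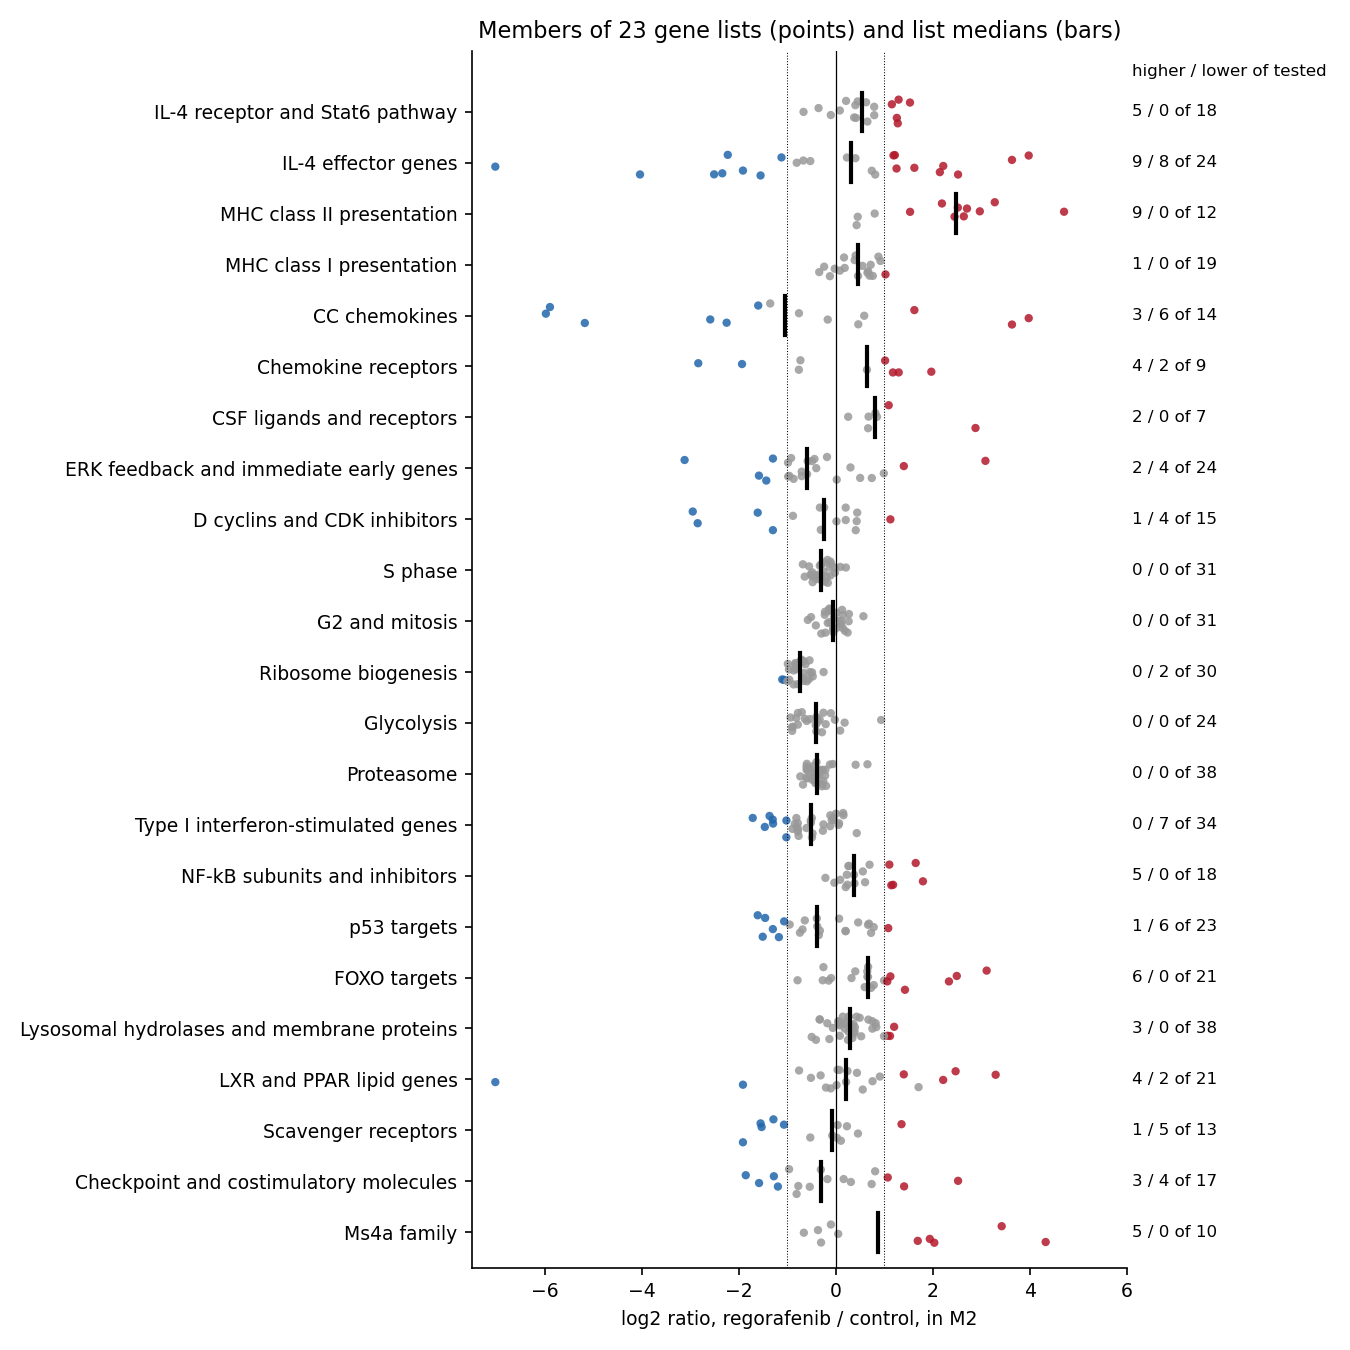
Each point is a tested member of 1 of 23 gene lists, placed by its M2 log2 ratio and coloured red if called higher, blue if called lower and grey otherwise; black bars are list medians, the numbers at the right count higher, lower and tested genes, dotted lines mark 2-fold, and the height of a point within its list carries no meaning. The class II list has its median at 2.48, the CC chemokines reach from −5.98 to 3.98, and the 30 ribosome biogenesis genes all lie below 0.

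Interferon-stimulated genes were lower in part and NF-kB genes higher in part. Of 34 type I interferon-stimulated genes, 24 had an interval below 0, beside 34.1% of all genes, and the median was −0.52. In this list 7 genes were lower and 0 higher, beside 4.11% and 5.23% of all genes. Rtp4 (1177 to 275, −1.71), the antiviral gene Rsad2 (713 to 198, −1.46) and the antiviral GTPase gene Mx1 (138 to 41, −1.37) led them. The median in M0 was −1.52. Of the interferon regulatory factors, Irf1 (1091 to 2605, 1.64) and Irf4 were higher and Irf7 had 2510 and 1265 counts (−0.60). Of 18 NF-kB subunits and inhibitors, 5 were higher and 0 lower, beside 5.23% and 4.11% of all genes. Relb (245 to 652, 1.80), Birc3 (656 to 1574, 1.65) and Bcl3 (183 to 318, 1.18) were higher. Nfkbiz (88 to 149, 1.14) and Nfkbie (733 to 1207, 1.1) made up the rest of the 5.

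Cytokines of the M1 phenotype remained at low counts. Tnf had 473 and 342 counts (−0.08, interval −0.29 to 0.12), Il6 had 12 and 4 (−1.20, interval −3.29 to 0.52) and Nos2 had 47 and 50 (0.47). Of 15 tested inflammatory cytokine genes 4 were lower and 0 higher, beside 4.11% and 5.23% of all genes. Over this list 5 intervals lay above 0 and 4 below it, beside 28% and 34.1% of all genes. The list median was 0.08, or −0.14 with no filter on counts. The lower genes were the anti-inflammatory Il10 (67 to 11, −2.22) and Il1rn, the IL-1 receptor antagonist (694 to 166, −1.68), together with Osm (316 to 108, −1.16) and Lif (14 to 1, −3.42, interval −8.83 to −0.71). Among the Toll-like receptors Tlr9, the receptor of CpG DNA, was higher (14 to 100, 3.22), as was Tlr2 (554 to 1478, 1.80). Cybb, the catalytic subunit of the NADPH oxidase, rose from 4757 to 17421 counts (2.26), and Acod1, the itaconate-making enzyme, from 150 to 549 (2.26). Acod1 went from 4.11 to 19.6 CPM in M2, beside 35.3 CPM in the M0 control and 6333 CPM in the M1 control.

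Lipid and scavenger genes went in both directions. Apoe, the apolipoprotein that carries cholesterol out of macrophages, rose from 1018 counts (27.9 CPM) to 7659 counts (274 CPM), a ratio of 3.30 (interval 3.20 to 3.39). The cholesterol exporter gene Abca1 (172 to 730, 2.47), the sterol hydroxylase gene Cyp27a1 (213 to 757, 2.21) and the nuclear receptor gene Ppard (326 to 660, 1.40) were also higher. Pparg, an M2-associated nuclear receptor, had 1885 and 1345 counts (−0.10), and the lipase gene Lpl had 157181 and 71224 (−0.76), both not called. Of 13 scavenger receptors, 5 were lower and 1, Cxcl16, higher, beside 4.11% and 5.23% of all genes. The list median was −0.07, or 0.002 when libraries were scaled by total counts. Besides Cd36 and Msr1 the lower genes were Stab1 (18631 to 5852, −1.29), Olr1 (49 to 13, −1.53) and Lrp1 (89326 to 32629, −1.07), and the summed level of the list was 8915 CPM in control and 5265 CPM with regorafenib.

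Most lysosomal genes had ratios above 0 and were not called. Of 38 genes, 31 had an interval above 0, beside 28% of all genes, and the median was 0.28. The 3 called higher were the cathepsin genes Ctsc (1676 to 2955, 1.20) and Ctsh (1278 to 2125, 1.12) and the glycosidase gene Naglu (2264 to 3633, 1.07). They made up 7.89% of the list, beside 5.23% of all genes. Of the 19 subunits of the proton pump 0 were called, with a median of −0.05 that turned to 0.03 when libraries were scaled by total counts.

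Ligands that act on T cells were mixed. Of 17 checkpoint and costimulatory genes 3 were higher and 4 lower, beside 5.23% and 4.11% of all genes. The median was −0.31, or −0.20 with 1 CPM added to each level. Pdcd1lg2, Tnfrsf14 (209 to 425, 1.41) and Vsir, which encodes VISTA (6959 to 11200, 1.07), were higher, and Cd274, which encodes PD-L1, had 1830 and 2340 counts (0.74, not called). The costimulatory genes Cd40 (260 to 55, −1.86) and Cd80 (1286 to 329, −1.58) were lower, as were Havcr2, which encodes TIM-3 (4758 to 1504, −1.28), and its ligand Lgals9 (5606 to 1877, −1.19). Of 16 genes of arginine and polyamine metabolism 1 was higher and 3 lower, beside 5.23% and 4.11% of all genes. Their median was −0.34. The spermidine synthase gene Srm was lower (1328 to 443, −1.20). Azin1, an activator of ornithine decarboxylase, was lower (14252 to 5436, −1.01), but short of 2-fold with DESeq2 size factors (−0.99), the upper quartile (−0.97) and total counts (−0.93).

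Of 13 tested genes that encode kinases inhibited by regorafenib, 3 were lower and 1 higher, beside 4.11% and 5.23% of all genes. Kdr, which encodes VEGFR2, fell from 906 to 246 counts (−1.50), beside Epha2 and Mapk11, whose call was lost under the scalings named above, while Pdgfrb rose from 229 to 375 counts (1.1). Flt1, which encodes VEGFR1, had 6879 and 3014 counts (−0.81), Fgfr1 had 7702 and 2967 (−0.99), and Braf had 993 and 798 (0.07), none of them called. Among the angiogenic ligands Vegfa had 31 and 92 counts (1.95), Angpt2 233 and 64 (−1.48) and Hbegf 175 and 30 (−2.16).

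Targets of FOXO factors, which rise when AKT is low, had a median of 0.66. Beside 5.23% and 4.11% of all genes, 6 of these 21 targets were higher and 0 lower. They were Pik3ip1 (13 to 86, 3.11), the ubiquitin ligase gene Fbxo32 (57 to 246, 2.49), Tcp11l2 (440 to 1698, 2.33), Ccng2 (533 to 1097, 1.43), Cdkn1b and Mxd4 (2583 to 4130, 1.06). The median of these genes in M0 was 1.02. Of 23 p53 targets 6 were lower and 1 higher, beside 4.11% and 5.23% of all genes. Cdkn1a, Phlda3 (1258 to 339, −1.51), Mdm2 (15670 to 4373, −1.46) and the death receptor gene Tnfrsf10b (321 to 100, −1.30) led the lower genes. In the Bcl-2 family 2 of 15 genes were higher and 3 lower, beside 5.23% and 4.11% of all genes, with a median of −0.13. The pro-apoptotic Bmf (27 to 260, 3.65) and the survival gene Bcl2a1b (13 to 25, 1.33), whose count is uncertain because near-identical copies exist, were higher. The survival genes Bcl2 (1601 to 552, −1.15) and Bcl2l1 (7182 to 2571, −1.10) and the pro-apoptotic Bok (40 to 15, −1.03) were lower, and Bok was short of 2-fold with the upper quartile (−0.99) and total counts (−0.95).

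Tmem176b, a Ms4a-related membrane protein of dendritic cells and macrophages, had 8 and 123 counts (4.33, interval 3.30 to 5.57), and Tmem176a had 5 and 41 (3.42). The Tmem176b and Tmem176a genes overlap on opposite strands, so their reads may be shared. In the same family Ms4a14 (107 to 335, 2.03), Ms4a4a (419 to 1230, 1.94) and Ms4a7 (3167 to 7827, 1.69) were higher and lie side by side on chromosome 19. Of 10 tested members 5 were higher and 0 lower, beside 5.23% and 4.11% of all genes. The median was 0.87, or −0.03 when at least 10 counts were required in both libraries. Nxpe5 (15 to 204, 4.15), Lrrc14b (27 to 211, 3.35), the plexin domain gene Plxdc2 (1223 to 8611, 3.20) and the lincRNA gene Gm34425 (30 to 184, 3.0) complete the 12 highest genes with at least 100 counts.

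At the other end, the catenin gene Ctnnd2 had 250 and 4 counts (−5.58), Fam20a 452 and 24 (−3.85), Gprc5a, an orphan receptor, 317 and 17 (−3.84), and Ehd2, a protein of caveolae, 1288 and 71 (−3.80). Nyap2 (128 to 8, −3.62) and the lincRNA gene Gm41442 (127 to 9, −3.43) were the last of the 12 lowest. Among the transcription factors of macrophage identity, Gata6, known from peritoneal macrophages, had 85 counts in the M2 control and 6 with regorafenib (−3.44), with 0 or 1 in the other libraries. Id1 was lower (977 to 210, −1.83) and Id3 higher (1043 to 1682, 1.07).

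Measured as a difference in CPM, the 6 largest gains were in genes below the 2-fold limit. Lyz2, which encodes lysozyme, went from 16711 to 27447 CPM (0.72) and the lysosomal activator gene Psap from 9332 to 15729 CPM (0.75), and neither was called. Gpnmb (0.48), Ctsd (0.49), Mpeg1 (0.92) and Ctss (0.43) followed. Of the largest losses, the intermediate filament gene Vim (5057 to 2498 CPM, −1.02) and the protease gene Adam8 (3962 to 1552 CPM, −1.35) were called. Vim was short of 2-fold with DESeq2 size factors (−0.9998), the upper quartile (−0.98) and total counts (−0.94). The ferritin genes Ftl1 (−0.36) and Fth1 (−0.20), Actb (−0.90) and Lpl were not. Ftl1 shares 60.4% and Ctsd 35.0% of their 100-base words with other genes, so their counts are uncertain. Summed over called genes, regorafenib added 14309 CPM and removed 28789 CPM.

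Some genes were highest in 1 of the M2 libraries alone. With at least 100 counts and a level over 3-fold above each of the other 5 libraries, 28 genes stood out in the M2 control and 13 in M2 with regorafenib. The 28 include Cd36, Mgl2, Clec10a, Cdh1, the homeobox gene Msx3 (3693 to 307, −3.20), the GTPase gene Rhob (13286 to 2364, −2.11), Tmem26 (6952 to 1219, −2.13) and Il1rl1, the IL-33 receptor (659 to 123, −2.04). The 13 include Retnla, Rnase2a, Ccl24, Pdcd1lg2, the sialic acid receptor gene Siglecf (80 to 233, 1.93), the phospholipase gene Ddhd1 (1150 to 3273, 1.89), the fatty acid transporter gene Slc27a6 (195 to 568, 1.93) and the TGF-β carrier gene Lrrc32 (62 to 158, 1.73). They were chosen by these values, so the counts are a description.

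Most genes called in M2 had the same direction in M0, whose libraries are separate from the M2 pair. Of the 722 genes higher in M2, 662 were tested in M0 and 419 of these (63.3%) were higher there and 8 lower, beside 8.27% and 10.2% of all genes tested in M0. Of the 568 lower genes, 507 were tested in M0, 338 (66.7%) were lower and 1 was higher. In M1, 23 of 538 were higher (4.28%) and 23 lower, and of the lower genes 40 of 437 were lower (9.15%) and 9 higher, beside 1.27% and 2.47% of all genes tested in M1. The median M0 and M1 ratios were 1.37 and −0.04 for genes higher in M2, and −1.42 and −0.19 for genes lower in M2.

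**Figure D3:**
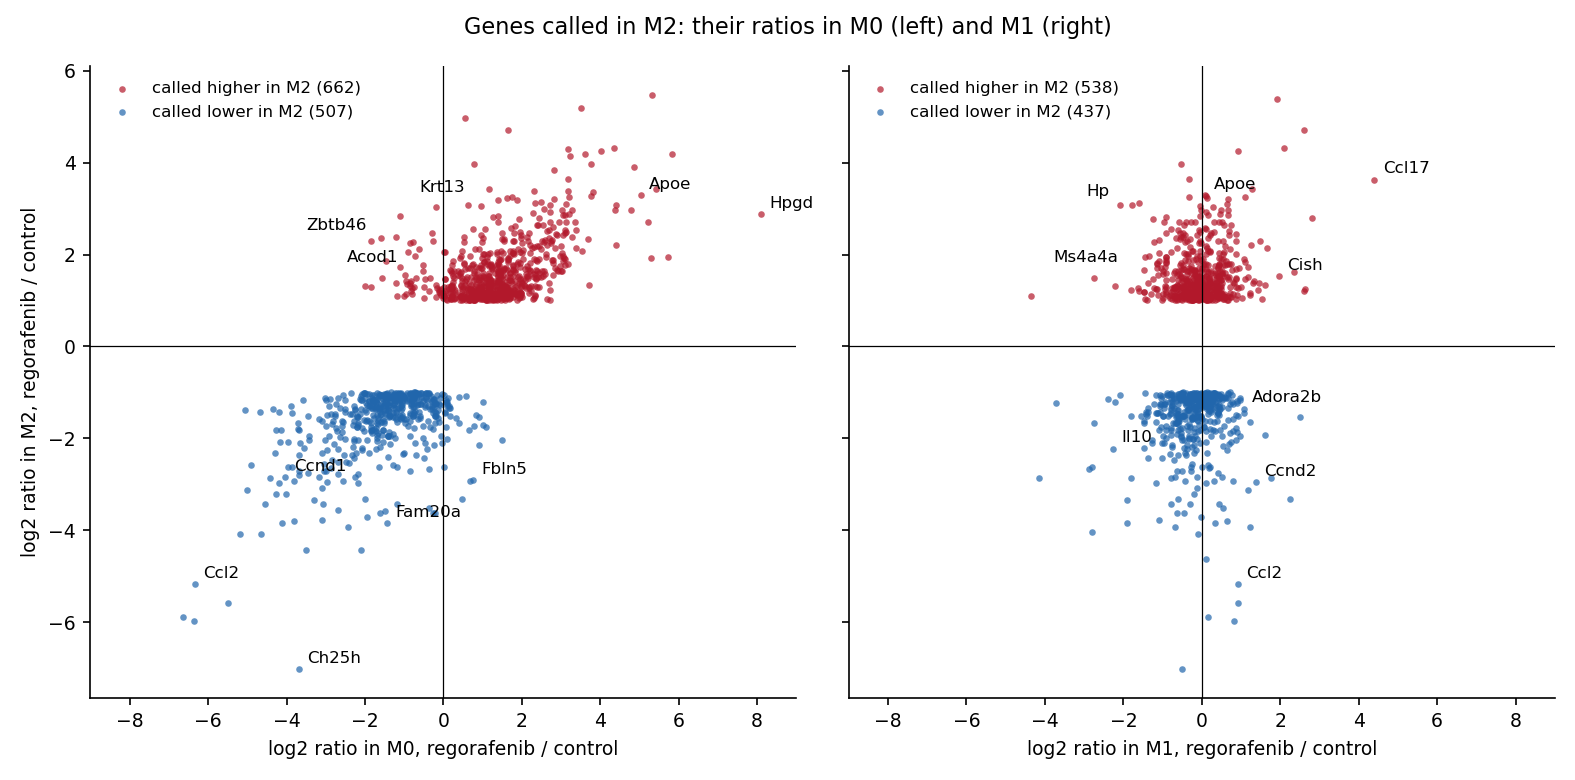
Each point is a gene called in M2, with its M2 log2 ratio on the y axis and its ratio in M0 (left, 662 higher and 507 lower genes) or M1 (right, 538 and 437) on the x axis; red is called higher and blue called lower in M2, and each ratio compares 1 library with 1 library. In M0 the higher genes center on 1.37 and the lower genes on −1.42, while in M1 the medians are −0.04 and −0.19.

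A few genes departed from M0. Those with the widest excess of the M2 over the M0 ratio included Acod1 (−0.86 in M0), the ribonuclease gene Rnase6 (61 to 228 in M2, 2.29; 71 and 63 in M0, −0.27) and Asap2 (72 to 142, 1.36; −0.94 in M0). In the other direction Fbln5, an elastic fibre protein, had 589 and 60 counts in M2 (−2.91) and 15 and 27 in M0 (0.75). Srpx2 had 122 and 28 in M2 (−1.74) and 6 and 11 in M0 (0.77), and Gm5150 had 1174 and 142 in M2 (−2.66) and 143 and 119 in M0 (−0.37). The difference between states has no replicate and was not tested.

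**Figure D4:**
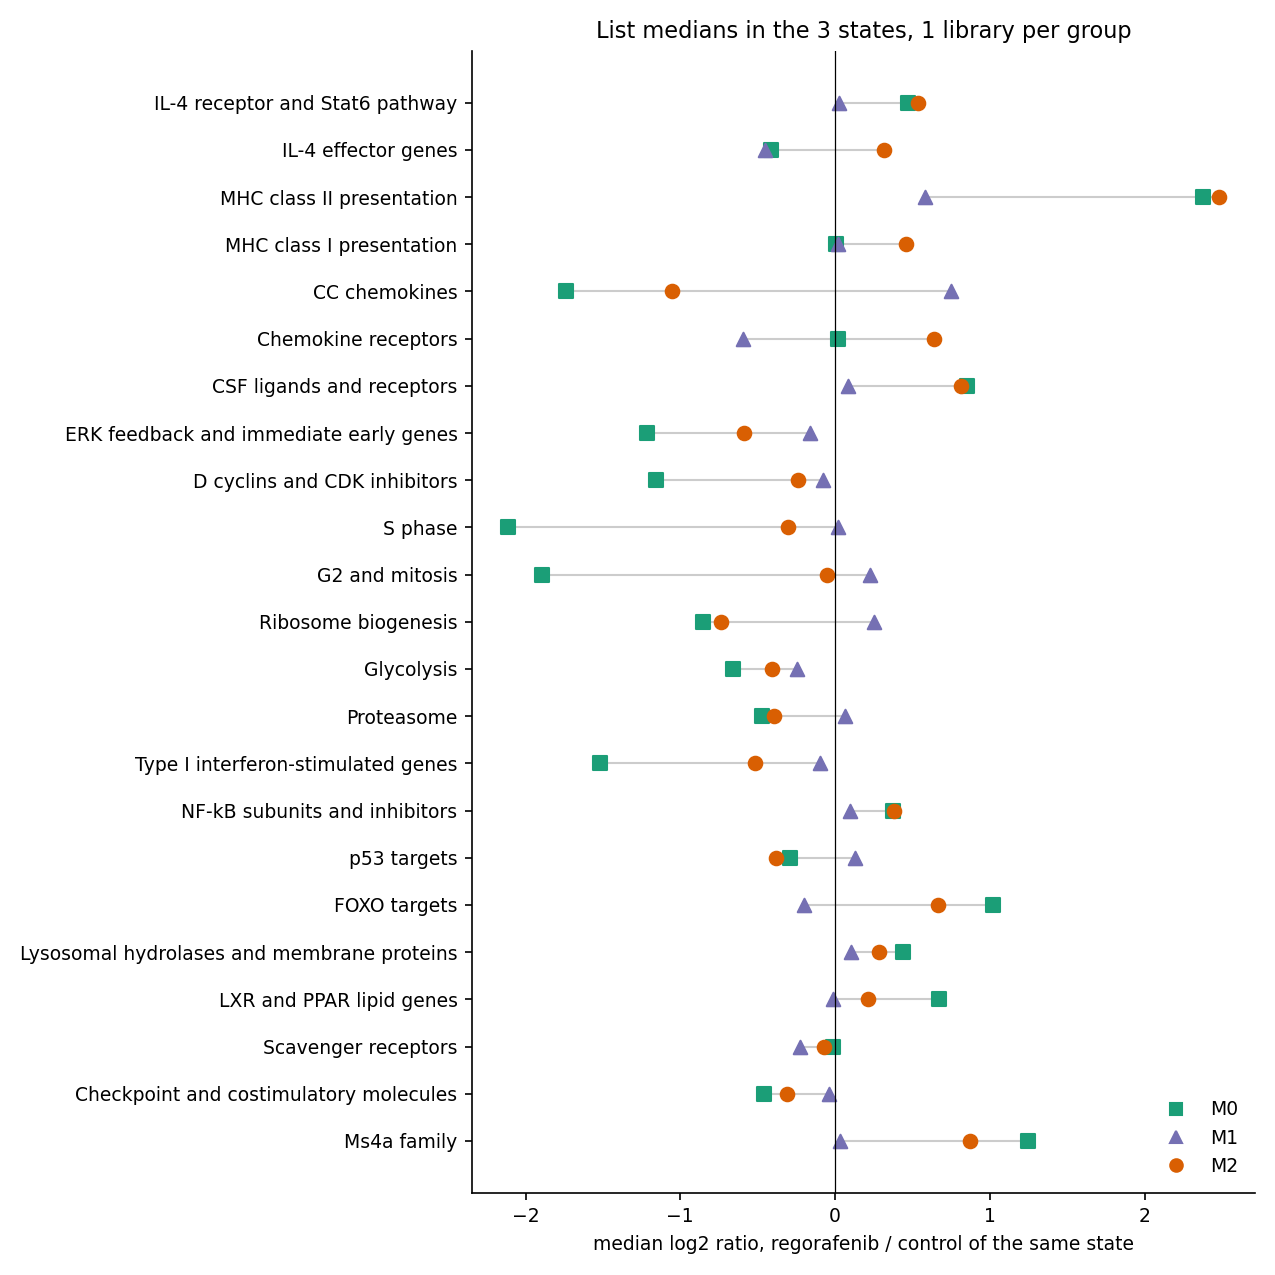
For each of 23 gene lists, the median log2 ratio of regorafenib to the control of the same state is drawn for M0 (green squares), M1 (purple triangles) and M2 (orange circles), each state with 1 library per group. The M0 and M2 medians lie close for class II genes (2.38 and 2.48) and ribosome biogenesis (−0.85 and −0.74), and lie apart for S phase genes (−2.12 and −0.30).

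Markers of other cell types were read beside these results. The 12 macrophage markers summed to 22374 CPM in the M2 control and 33963 CPM with regorafenib. Lyz2 alone held 16711 and 27447 CPM of these sums. Of the 12 markers, 1 was higher and 1 lower, beside 5.23% and 4.11% of all genes, as for the other lists here. The median ratio was 0.23, with 7 intervals above 0 and 5 below it. Of 10 dendritic cell markers 3 were tested and all 3 were higher, and they were Itgax (5849 to 9449, 1.08), Zbtb46 (15 to 59, 2.36) and Kmo (2 to 14, 3.19), which reached 10 counts only with regorafenib. The dendritic cell list summed to 161 and 341 CPM, nearly all of it Itgax, and Flt3, Clec9a, Xcr1 and Siglech had 0 to 2 counts in each M2 library. The neutrophil list summed to 98.8 and 147 CPM with 2 of 5 tested genes higher, S100a9 (0 to 11 counts, at least 4.79-fold higher) and Cxcr2 (6 to 18), both of which reached 10 counts only with regorafenib, and Ly6g, Elane, Retnlg, Camp and Ngp were at 0 in both. The monocyte list gave 15.2 and 27.3 CPM, the fibroblast list 10 and 19.4 CPM, and the osteoclast list 200 and 207 CPM with 3 of 6 genes higher. Markers of B cells, T cells, NK cells, mast cells and erythroid cells summed to 0 to 0.25 CPM per list. The part of these cells in the results was not tested.

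Keratin genes formed a run of neighbours among the higher genes. Krt13 had 34 and 215 counts (3.04), against 23 to 33 in the other libraries, and Krt5 had 27 and 115 (2.47). Krt4, Krt5, Krt6a, Krt6b and Gm5478 were consecutive tested genes on chromosome 15 and all higher. Of 29 genes of squamous epithelium, listed after these values were seen, 17 were tested, of which 11 reached 10 counts only in the library with regorafenib, so that the filter itself favoured a higher call. Of the 6 with at least 10 counts in both M2 libraries, 4 were higher and 0 lower. The list summed to 5.67 CPM in the M2 control, 24.8 CPM in M2 with regorafenib, and 6.97 to 11.3 CPM in the other 4 libraries. The epithelial genes Epcam and Trp63 had 0 to 2 counts in each M2 library, and Krtdap, Ly6d and Lor had 0. Without this list 708 genes were higher and 568 lower. Adipoq, a gene of fat cells, had 12 counts in M2 with regorafenib and 0 in the other 5 libraries, and was at least 5.22-fold higher. The part of other cells in these values was not tested.

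Along the chromosomes there were 23 runs of at least 3 neighbouring tested genes called in the same direction, 17 higher and 6 lower. Besides the runs named above they include Ccl22, Cx3cl1 and Ccl17 on chromosome 8, Clec4a1, Clec4a3 and Clec4b1 on chromosome 6, Rnase6, Ang2 and Rnase2a on chromosome 14 (higher), and Il1rl1, Il18rap, Slc9a4 and Slc9a2 on chromosome 1 and Sema3c, Cd36 and Gnat3 on chromosome 5 (lower). The median transcript length was 2802.5 bases for higher and 2643.5 for lower genes against 3096 for all tested genes, and the median GC content was 51.2% and 50.2% against 49.3%. Protein-coding genes made up 85.4% of tested genes, and 570 of the 722 higher and 456 of the 568 lower genes.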

How the data were processed

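Total RNA of 6 libraries was sequenced with a stranded mRNA kit. The deposited table holds raw gene counts that the authors made with cutadapt 2.4 and STAR 2.7.2a on GRCm38 with Gencode M19. Gene IDs were matched to Gencode M21, and 37 were unmatched.

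Counts were scaled with TMM (edgeR 4.0.16), and 0 was replaced by 0.5 in ratios. Intervals are 95% conditional exact binomial (Clopper-Pearson) intervals. Folds against 0 counts used a floor of 3 counts. The calculation was tested on simulated data. NOISeq, used by the authors, was not used because it simulates replicates.

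The members and gene lists were chosen with earlier results of these data known. Named genes were the 12 highest and 12 lowest ratios among called genes with at least 100 counts, the 6 largest gains and losses of CPM, the 5 per direction whose ratio most exceeded that in M0, list members, and genes the study names. Motifs were searched in RefSeq windows from 250 bases before to 50 after the start. Values of some genes are not reported here. Alternatives were other scalings, filters, thresholds and added constants.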

Additional observations from a re-analysis of the deposited data

Results flagged for a closer look

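Some genes were called in opposite directions in M2 and in another state. Each state has 1 library per group, so the difference between states was not tested. Of the genes higher in M2, 8 were lower in M0, among them Zbtb46, a transcription factor of dendritic cells, with 15 and 59 counts in M2 (2.36) and 14 and 5 in M0. Of the genes lower in M2, 1 was higher in M0, the scaffold gene Mapk8ip1, with 45 and 15 counts in M2 and 19 and 41 in M0.

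Of the genes higher in M2, 23 were lower in M1. They include the lectin gene Clec4n (79 to 302 counts, 2.32; 2111 and 923 in M1) and Ms4a4a (419 to 1230, 1.94; 6218 and 2123 in M1). The acute phase genes Hp (4 to 26, 3.08; 6489 and 1429 in M1) and Slpi (13 to 87, 3.13; 2668 and 818 in M1) went the same way.

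Of the genes lower in M2, 9 were higher in M1. They include the adenosine receptor gene Adora2b (593 to 178, −1.35; 2323 and 4530 in M1), Ccnd2 (353 to 35, −2.95; 1723 and 4155 in M1), the clock repressor gene Nr1d1 (433 to 121, −1.46; 39 and 77 in M1) and the proline synthesis gene Pycr1 (19 to 2, −2.86, interval −6.01 to −0.81; 6 and 19 in M1).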

How the results depend on the processing

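No paired analysis was possible because each group is 1 library, and for the same reason no replicate could be left out. The counts of 722 higher and 568 lower genes became 296 and 269 with 1 CPM added to each level, 426 higher with at least 50 counts required, 1397 and 1376 at 1.5-fold, 186 and 149 at 4-fold, and 301 and 240 when the whole interval had to pass 2-fold. The other scalings gave 722 to 842 higher and 473 to 568 lower genes, and with total counts Slc7a5, Nop2, Lrp1 and Slc9a2 (−0.98, −0.99, −0.99 and −0.98) were also short of 2-fold. The filters other than 50 counts gave 557 to 808 and 423 to 593. The 57 named genes were recomputed under 6 alternatives (other scalings, 1 CPM added, 0 set at 3 counts), and 0 changed the sign of their ratio. With 1 CPM added, 11 of the 57 had a log2 ratio over 1.5 times smaller, all but Il6 still past 2-fold, among them Ch25h (−7.02 to −4.10), Ctnnd2 (−5.58 to −2.78), Tmem176b (4.33 to 2.15) and Tlr9 (3.22 to 1.73). The share of calls that were higher was 56.0% and ranged from 50.4% to 64.0%. Of 72 list medians 35 were above 0, with 33 to 39 under the 10 alternatives run on lists, and 13 lists changed sign under at least 1 of them. Among these were the purine signalling genes (−0.32 to 0.09 with no filter), the chemokine receptors and the Ms4a family, whose medians became −0.04 and −0.03 when both libraries had to hold 10 counts. One alternative, without the squamous genes, was chosen after seeing the data. Depth limits genes with few counts, whose intervals are wide.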

Other observations

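Of 15 semaphorin and plexin genes, 4 were higher and 2 lower, beside 5.23% and 4.11% of all genes, as for the other counts here. Sema6d (53 to 178 counts, 2.13) and Sema4a (747 to 1382, 1.27) were higher, and the guidance genes Sema3c (2193 to 257, −2.71) and Sema5a (101 to 14, −2.47) were lower. Of 13 genes of adenosine and purine signalling 3 were higher and 1 lower, with 5 intervals above 0, 5 below it and a median of −0.32, which became 0.09 with no filter on counts. Entpd1, the ectonucleotidase CD39, rose from 274 to 1024 counts (2.29) and the ATP-gated channel gene P2rx4 from 2246 to 3918 (1.19), and the adenosine receptor gene Adora2b fell from 593 to 178 (−1.35). Of the C-type lectins 6 of 17 were higher and 2 lower. Clec4n, which encodes Dectin-2, had 79 and 302 counts (2.32).

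Genes of iron, clearance and tissue-resident macrophages went both ways. The iron exporter gene Slc40a1 (86 to 233, 1.82) was higher and the heme oxygenase gene Hmox1 (35142 to 10967, −1.30) lower. The efferocytosis receptor genes Axl (1385 to 4028, 1.92) and Mertk (295 to 573, 1.34) were higher. The selenium carrier gene Selenop rose from 5006 to 16828 counts (2.13), while the folate receptor gene Folr2 (11257 to 3568, −1.27) and Cbr2 (1072 to 240, −1.78) were lower. In complement, C3 rose from 1964 to 8861 counts (2.56) and the C5a receptor gene C5ar1 fell from 1550 to 419 (−1.50).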
